A study of Mus musculus with 16 samples.

Results

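The comparison described here is the effect of cordycepin on LPS-stimulated RAW 264.7 cells, a mouse macrophage line. It takes the 4 arrays of cells given cordycepin and then LPS (LPS+cordycepin) and the 4 arrays of cells given the solvent DMSO and then LPS (LPS+DMSO), which are 8 of the 16 arrays of the series. In both groups the cells were kept in low-serum medium for a day before treatment. The LPS+cordycepin cells then received 20 µM cordycepin for 60 min and 1 µg/ml LPS for a further 60 min, and the LPS+DMSO cells received DMSO in place of cordycepin. The other 8 arrays, 4 with cordycepin and 4 with DMSO, had no LPS and were used for the comparison without LPS. Each replicate number was a culture day on which 1 plate gave 1 sample of every condition, so replicate 1 of one group pairs with replicate 1 of the other. All members of the comparison were 1 cell line in culture, so n counts culture days of that line. The cytokine and NF-κB genes were set aside and counted once, because the question was which other genes were lower or higher.

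Cordycepin is an analogue of adenosine that lacks the 3′ hydroxyl group. Inside cells it is phosphorylated, and its triphosphate can end a growing RNA chain, which makes the poly(A) tail, built of adenosine alone, the part of an mRNA most open to it. LPS, a component of the outer membrane of Gram-negative bacteria, is recognised by Toll-like receptor 4 on macrophages. The receptor switches on an early wave of transcription through NF-κB and MAP kinases and a later wave through interferon regulatory factors. Part of the early wave encodes inhibitors, such as MAP kinase phosphatases, that shut the pathway down again.

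Expression was measured on 1-colour microarrays, and each level below is a log2 signal after every array was scaled to the same 75th percentile. Between 21999 and 30362 of the 59305 spots per array were above background on the 8 arrays, which is 37.1% to 51.2% of them, and no spot was saturated. The number of arrays, 4 per group, limits the precision. The tests covered 15875 genes, of which 11654 had a gene symbol, 1628 were intergenic RNAs and 2593 were other transcripts. The cell label was checked against markers. All 10 macrophage markers, among them Csf1r, Cd68 and Adgre1, were above background on all 8 arrays, with LPS+DMSO levels of 11.18 to 17.35, and none passed the test. The 4 epithelial markers and 3 of the 4 fibroblast markers were above background on no array. Of the 4 neutrophil markers Mpo was raised, from 5.80 to 9.77, while Ly6g and S100a9 were above background on no array. Of the 4 B cell markers Cd79a was raised, from 6.32 to 8.96, and none was above background on all 8 arrays. Of the 4 T cell markers, 2 were above background on all 8 arrays and 0 were called. The summed marker level ran from 6.60 to 7.13 in LPS+DMSO and from 8.38 to 10.01 in LPS+cordycepin for B cells, from 7.88 to 8.57 and from 9.82 to 10.55 for neutrophils and from 11.33 to 11.63 and from 11.91 to 12.33 for T cells. These ranges did not overlap, while those of the macrophage markers, 19.09 to 19.24 and 19.05 to 19.34, did, and the part of other cell types in the rises was not tested. In such bulk samples fewer cells of a type and less RNA per cell cannot be told apart.

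More genes were raised than lowered at the chosen threshold. A gene was called when its adjusted p (limma, Benjamini-Hochberg over all genes tested) was under 0.05 and the change was at least 2-fold. On that rule 943 genes were higher in LPS+cordycepin, 5.94% of all genes tested, and 241 were lower, 1.52%. The 2 directions drew on different parts of the expression range. The raised genes were dim in LPS+DMSO cells, with a median level of 5.98 against 10.35 over all genes, and reached a median of 7.96. Their median change was 1.82 on the log2 scale, 400 rose more than 4-fold and 151 more than 8-fold. The lowered genes were brighter than the raised ones, with a median level of 9.75, which is still below that over all genes. Their median change was −1.29, 21 fell more than 4-fold and 0 more than 8-fold. The median change over all genes was 0.035 and lay between −0.12 and 0.12 under the other scalings and filters. Of the raised genes 168 were above background on no LPS+DMSO array. Such genes entered the test only through the arrays of another condition, which favours a rise here. Of all 187 genes tested that were above background on no LPS+DMSO array, 19 were not called. Among the 14127 genes above background on all 8 arrays, 395 were raised (2.80%) and 191 lowered (1.35%) at the 2-fold minimum. On the adjusted p alone the order turned in that set, with 1093 genes higher and 1223 lower. All 943 raised and all 241 lowered genes moved the same way on both slides, and 932 and 237 moved the same way in all 4 culture days. The calls were made on these same arrays, so this agreement is largely built in and supports nothing by itself. Over all 15875 genes tested, 3441 were higher and 2624 lower in all 4 culture days.

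**Figure D1:**
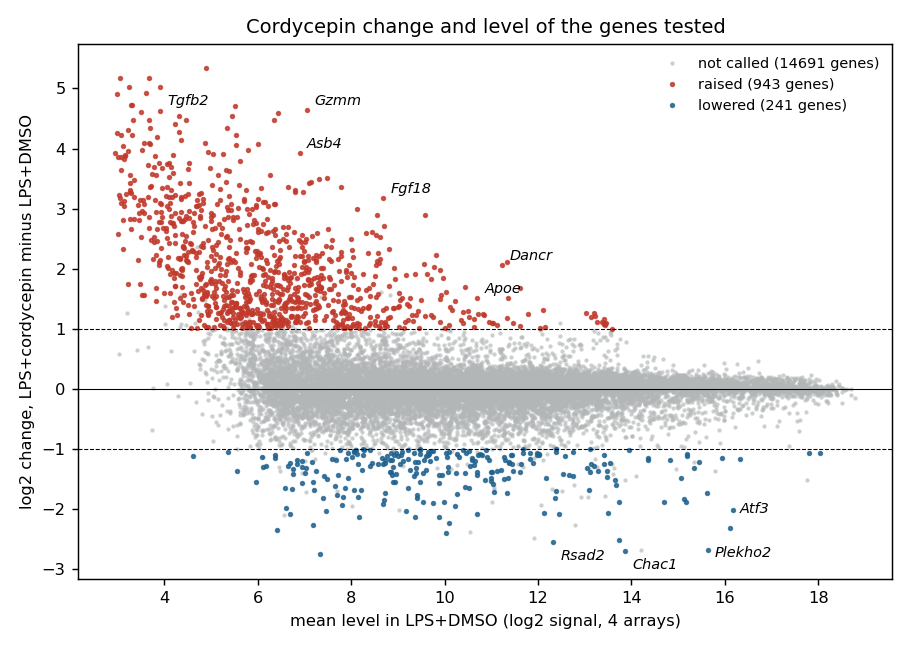
Each point is 1 of the 15875 genes tested, with its mean log2 signal over the 4 LPS+DMSO arrays on the horizontal axis and its log2 change, LPS+cordycepin minus LPS+DMSO, on the vertical axis. The 943 raised genes (red) sit mostly at the dim end, around a median level of 5.98, and the 241 lowered genes (blue) spread over the middle and upper range, around 9.75.

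The 2 directions also differed in the kind of transcript. Of the genes with a symbol 472 of 11654 were raised (4.05%) and 202 lowered (1.73%). Of the intergenic RNAs, which are long transcripts from between annotated genes, 266 of 1628 were raised (16.3%) and 21 lowered (1.29%). Over all genes the shares were 5.94% and 1.52%. Of the uncharacterised genes, 60 of 370 RIKEN cDNA genes were raised (16.2%) and 10 lowered (2.70%). Of 284 predicted Gm genes 25 were raised (8.80%), nearer the share over all genes, and 1 was lowered (0.35%). When the count was kept to transcripts above background on all 8 arrays, 102 of 1129 intergenic RNAs were raised (9.0%) and 10 lowered (0.89%). Of 10769 genes with a symbol 201 were raised (1.87%) and 176 lowered (1.63%). Over all such genes the shares were 2.80% and 1.35%. On the adjusted p alone, 702 of these symbol genes were higher and 1100 lower, so the balance of directions among genes with a symbol depended on the minimum fold.

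The largest falls were in genes of unlike function. Among genes with a symbol, above background on all 8 arrays and outside the set-aside lists, the largest was that of Chac1 (NM_026929, probe at mm9 chr2:119179990-119180049, plus strand), which encodes an enzyme that breaks down glutathione. Its levels in LPS+DMSO were 13.97, 13.85, 13.47 and 14.18 in replicates 1 to 4, and in LPS+cordycepin they were 10.98, 10.75, 11.23 and 11.70. The groups did not overlap, and the change was −2.70 ± 0.19 (SE, n = 4 per group, adjusted p = 5.38e-08). Each SE comes from the fit of all 16 arrays, so it also holds the spread of the arrays without LPS. Plekho2 (NM_153119, chr9:65402194-65402253, minus strand), a protein with a membrane-binding pleckstrin homology domain, was one of the brighter genes lowered. It was at 15.55, 15.62, 15.50 and 15.85 in LPS+DMSO and at 12.94, 12.71, 13.06 and 13.11 in LPS+cordycepin, so that it changed by −2.67 ± 0.15 (adjusted p = 7.91e-09). Another 2 Plekho2 probes gave −2.78 and 0.77, so the probes of this gene disagreed. Atf3 (NM_007498, chr1:192994547-192994606, minus strand), a transcription factor induced by stress and by Toll-like receptors, was the brightest of the 10. Its levels were 16.25, 16.09, 16.07 and 16.26 in LPS+DMSO and 14.12, 14.33, 14.02 and 14.18 in LPS+cordycepin, with a change of −2.01 ± 0.15 (adjusted p = 1.29e-07).

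The other large falls included regulators of transcription and of the nucleolus. Surf6, a nucleolar protein of ribosome assembly, was at 12.41, 12.38, 12.48 and 12.54 in LPS+DMSO and at 10.39, 10.40, 10.52 and 10.20 in LPS+cordycepin. Its change of −2.07 ± 0.08 had the smallest error of the 10 falls (adjusted p = 4.27e-10), and a second probe gave −2.18. Hinfp, a zinc finger activator of histone H4 genes, was at 9.85, 9.95, 9.98 and 10.38 in LPS+DMSO and at 7.34, 7.60, 7.96 and 7.71 in LPS+cordycepin, a change of −2.39 ± 0.16. Hilpda, a lipid droplet protein that restrains fat breakdown, was at 13.66, 13.30, 13.33 and 13.72 in LPS+DMSO and at 11.41, 11.28, 11.22 and 11.85 in LPS+cordycepin, a change of −2.06 ± 0.15. The groups of all 3 genes were apart by more than their spread. Gpatch3 (−2.22), the zinc finger gene Zbtb9 (−2.08) and the F-box gene Fbxo46 (−2.04) completed the 10 with Rsad2, described below. For Zbtb9 another probe gave −0.97. Among genes with a symbol outside the set-aside lists, only Jrk, which encodes a DNA-binding protein, was lowered from above background on all 4 LPS+DMSO arrays to above background on none of the LPS+cordycepin arrays. Its levels were 7.35, 7.42, 7.47 and 7.13 in LPS+DMSO against measured values of 4.04, 4.78, 5.22 and 4.31, which is a fall of at least 3.89-fold (adjusted p = 1.32e-07). Such a bound sets the mean of the detected group against the lowest signal that passed as above background on each array of the other group, or against the gene's own signal where that was higher.

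**Figure D2:**
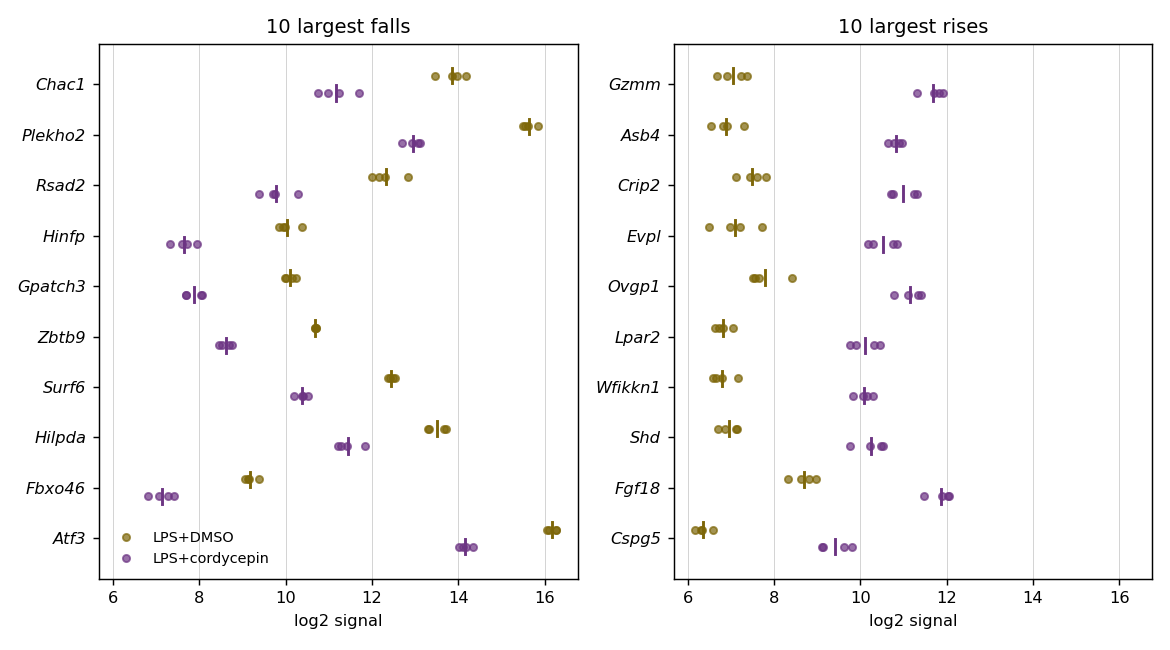
Log2 signals of the 10 genes with the largest falls (left) and the 10 with the largest rises (right), each point 1 array and each vertical bar the mean of 4 arrays. In all 20 genes the LPS+DMSO (ochre) and LPS+cordycepin (purple) arrays do not overlap.

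The interferon-stimulated genes, which carry much of the antiviral response, were called in a few members. Of 70 measured, 5 were lowered (7.14% beside 1.52% over all genes) and 1 was raised (1.43% beside 5.94%), and their median change was −0.12, between −0.27 and 0.04 under the alternatives. Rsad2 (NM_021384, chr12:27127859-27127918, minus strand), which encodes the antiviral enzyme viperin, fell furthest. It was at 12.83, 12.17, 12.001 and 12.31 in LPS+DMSO and at 10.30, 9.75, 9.39 and 9.72 in LPS+cordycepin. The groups did not overlap, and the change was −2.54 ± 0.62 (adjusted p = 0.00828). The spread of Rsad2 was largest in the DMSO arrays without LPS (SD 1.82), which enter this SE. It was 0.36 in LPS+DMSO and 0.38 in LPS+cordycepin. Ifih1, the cytosolic RNA sensor MDA5, changed by −1.58 (adjusted p = 0.00271), Setdb2, a histone methyltransferase, by −1.89 (adjusted p = 1.39e-07), and Slfn2 by −1.10 (adjusted p = 0.000287). A second Setdb2 probe gave −0.27. Peli1, a ubiquitin ligase of Toll-like receptor signalling that is also among the set-aside NF-κB genes, changed by −1.29 (adjusted p = 1.17e-05). Isg20, an exonuclease that degrades viral RNA, went the other way. Its levels were 10.26, 9.63, 9.07 and 9.36 in LPS+DMSO and 12.26, 12.50, 12.52 and 12.60 in LPS+cordycepin, which is a difference of 2.89 ± 0.37 (adjusted p = 2.89e-05), and a second probe gave 2.62. Ifit1, a classical member of the family, had a change of −1.32 and did not pass (adjusted p = 0.0844).

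Interferon-stimulated genes are bound by their shared regulator at an interferon-stimulated response element, searched here as the letters GAAANNGAA on both strands from 250 bases before to 50 after each RefSeq start (GRCm38.p6). The stretches around the match are shown for the lowered Rsad2 and Ifih1 and for Ifit1, because they set a called and an uncalled gene side by side. Each runs 5′ to 3′ along the strand of the gene, and capitals mark the match, which in all of them lies on the opposite strand. The Rsad2 stretch is chr12:26456548-26456586, minus strand, with its match 119 bases before the start. That of Ifih1 is chr2:62646344-62646382, minus strand, 112 bases before. That of Ifit1 is chr19:34640765-34640828, plus strand, and holds 3 matches, of which 2 overlap, the first 109 bases before.
Rsad2: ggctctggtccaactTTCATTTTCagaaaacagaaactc
Ifih1: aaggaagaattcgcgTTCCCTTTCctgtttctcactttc
Ifit1: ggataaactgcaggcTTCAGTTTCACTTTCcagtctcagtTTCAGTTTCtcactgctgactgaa
Of the 56 interferon-stimulated genes with a promoter in the table, 28 held the letters, and of the 5 lowered members 2 did. Over all genes the letters did not follow the change: they stood in 8.18% of the promoters of lowered genes, 7.32% of those of raised genes and 8.58% of those of all genes tested, beside 9.76% of the whole promoter table.

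Genes of the amino acid and endoplasmic reticulum stress responses likewise moved in single members. Of 50 measured genes of the list for ATF4, the transcription factor of the amino acid response, Chac1 was lowered, Slc7a3 was raised and the median change was −0.02. Of 34 chaperones and other unfolded protein response genes Herpud1 alone was lowered and none was raised. Herpud1 helps to degrade proteins of the endoplasmic reticulum. Its levels were 14.86, 14.47, 14.44 and 15.04 in LPS+DMSO and 12.88, 12.84, 12.68 and 12.88 in LPS+cordycepin, so that it changed by −1.88 ± 0.14 (adjusted p = 1.17e-07). Asns, the asparagine synthetase that serves as a standard ATF4 target, had a change of 0.03 (adjusted p = 0.926). It was singled out after its value was seen. The letters TGATGNAA, the core of the amino acid response element, were found in the promoters of Chac1, Atf3, Herpud1 and Asns alike. The stretches are shown because 3 of these genes were lowered and 1 was not. They are chr2:119351034-119351071 (plus strand, match 193 bases before the start), chr1:191183421-191183458 (minus strand, 110 bases before), chr8:94386302-94386339 (plus strand, 112 bases before) and chr6:7693210-7693247 (minus strand, 23 bases before) of GRCm38.p6, with the match in capitals.
Chac1: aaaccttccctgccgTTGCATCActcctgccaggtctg
Atf3: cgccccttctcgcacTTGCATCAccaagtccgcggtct
Herpud1: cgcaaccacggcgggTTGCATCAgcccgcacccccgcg
Asns: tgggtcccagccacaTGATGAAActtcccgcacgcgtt
The first 3 matches hold the same 8 letters, while that of Asns lies on the other strand and differs in the free position. The letters stood in 8 of the 159 promoters of lowered genes (5.03%), in 5.35% of those of raised genes, in 2.81% of those of all genes tested and in 4.51% of the whole table, so the lowered share lay close to the raised one.

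The MAP kinase phosphatases and other feedback inhibitors of signalling had a median change below 0 on every culture day. Of 30 measured, 7 were lowered, which is 23.3% beside 1.52% over all genes, and 0 were raised. Their median change was −0.66, −0.58, −0.63, −0.45 and −0.66 in culture days 1 to 4 taken singly and between −0.81 and −0.32 under the alternatives. Dusp5, a nuclear phosphatase of ERK, was at 8.12, 7.44, 7.84 and 7.39 in LPS+DMSO and at 5.72, 5.58, 6.43 and 6.00 in LPS+cordycepin, which is a difference of −1.76 ± 0.37 (adjusted p = 0.00265). Rgs1, which switches off G protein signalling, was at 13.12, 13.12, 12.93 and 13.17 in LPS+DMSO and at 11.37, 11.36, 11.40 and 11.50 in LPS+cordycepin, so that it changed by −1.67 ± 0.17 (adjusted p = 2.55e-06). Its relative Rgs2 was at 15.17, 15.01, 15.04 and 15.03 against 13.81, 13.60, 13.58 and 13.33, a change of −1.49 ± 0.15, but a second probe gave 0.89, and the mean of its probes was not called. The call of Dusp5 was lost with normexp background correction. None of these groups overlapped. The others lowered were Dusp4 (−1.41), the TGF-β inhibitor Smad7 (−1.32), the kinase Plk2 (−1.25) and the EGF receptor inhibitor Errfi1 (−1.23). Some of these genes, Dusp and Rgs members among them, are known as targets of the same early LPS wave as the set-aside lists, in which 8 of 38 cytokines and chemokines and 19 of 93 NF-κB targets were lowered, 5 and 2 raised, with medians of −0.27 and −0.58.

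The immediate early transcription factors, which are switched on within minutes of a stimulus, had a median change of −0.36, between −0.51 and −0.28 under the alternatives. Of 44 measured, 3 were lowered, 6.82% beside 1.52% over all genes, and 0 raised, beside 5.94%. Beside Atf3 these were Myc, the growth regulator, and Id3, an inhibitor of helix-loop-helix factors. Myc was at 8.30, 8.79, 8.06 and 9.56 in LPS+DMSO and at 6.59, 6.49, 6.87 and 7.06 in LPS+cordycepin, with no overlap and a change of −1.92 ± 0.43 (adjusted p = 0.00429). Id3 changed by −1.63 ± 0.54 with an adjusted p of 0.045, close to the threshold, and lost its call under 13 of the alternatives. The spread of Id3 was largest in the DMSO arrays without LPS (SD 1.29), which enter this SE. It was 0.36 in LPS+DMSO and 0.45 in LPS+cordycepin. Btg1, an inhibitor of cell division, had a change of −2.68 with an SE of 1.24 and did not pass (adjusted p = 0.171). It was singled out after its value was seen. The clock genes, 13 measured, had a median of −0.27 with 0 called.

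Lists of DNA-binding and RNA-handling proteins held lowered and raised members side by side. Of the 260 Zfp genes, most of which encode zinc finger DNA-binding proteins, 14 were lowered and 11 raised, with a median of −0.13, and 164 of the 260 lay below 0. The lowered share of 5.38% stood beside 1.52% over all genes and the raised share of 4.23% beside 5.94%. Zfp607a had the largest fall (−2.12, adjusted p = 8.41e-07) and Zfp389, which was above background on no LPS+DMSO array, rose at least 2.76-fold (measured means 4.46 and 6.68, adjusted p = 6.79e-05), a call lost with normexp background correction. A list of tRNA-modifying enzymes was drawn up after the values were seen and supports nothing by itself: 6 of 56 were lowered, 1 was raised and the median was −0.12. Adat3, part of the adenosine deaminase that edits the tRNA anticodon, changed by −1.90 (adjusted p = 2.2e-07), and Trmt61a, the catalytic subunit of a tRNA adenosine methyltransferase, by −1.71 (adjusted p = 3.77e-09). Brf2 (−1.38, a call lost with normexp) and Polr3d (−1.37), of the RNA polymerase III machinery that makes tRNAs, were the 2 lowered among 26 in another list drawn up in the same way. The Zbtb and Zscan zinc finger genes, in one more such list, had 3 of 37 lowered and 1 raised.

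Long noncoding RNAs of the nucleus went in both directions. Of 21 such RNAs and small nucleolar RNA hosts, 3 were lowered (14.3% beside 1.52% over all genes) and 1 was raised (4.76% beside 5.94%), with a median of −0.17. Dancr was at 11.19, 11.07, 11.35 and 11.36 in LPS+DMSO and at 13.20, 13.04, 13.48 and 13.46 in LPS+cordycepin, which is a difference of 2.06 ± 0.12 (adjusted p = 1.41e-08) with no overlap. Pvt1, transcribed beside Myc, changed by −1.57 (adjusted p = 8.51e-09), although another probe gave 0.51 and the mean of its probes was not called. Neat1, the scaffold of paraspeckles, changed by −1.26 (adjusted p = 8e-06) and Snhg5 by −1.21. Among the factors that act on the poly(A) tail itself, few were called. Papolg, a poly(A) polymerase, was the only 1 of 29 cleavage and polyadenylation factors lowered (−1.73, adjusted p = 1.4e-06) and 0 were raised. Tia1, an RNA-binding translational silencer, was the only 1 of 38 deadenylases and decay regulators raised (1.94, adjusted p = 5.71e-06), with another probe at 0.17, and 0 were lowered.

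Other lists of immune, stress, lipid and signalling genes held 1 or 2 called members each. Their lowered shares ran from 0% to 6.45%, beside 1.52% over all genes, and their raised shares from 0% to 6.67%, beside 5.94%. Counts this small say nothing about a list as a whole. Of 31 pattern recognition genes, Nlrp3, the inflammasome sensor, changed by −1.53 and Ticam1, the TRIF adaptor of Toll-like receptors, by −1.13, and 0 were raised. Of 40 macrophage identity genes the transcription factor Runx1 alone was lowered (−1.37, another probe −1.62). Srxn1, which repairs oxidised peroxiredoxins, was the only 1 of 34 NRF2 targets lowered (−1.11), a call lost without culture day 4. Of 39 p53 targets the death receptor Tnfrsf10b was raised (1.14), a call lost after scaling to spiked-in controls, and Pvt1 lowered. Of 15 lipid efflux genes Apoe, the lipid carrier apolipoprotein E, was raised by 1.51 (adjusted p = 2.44e-06). Of 27 adenosine and cyclic AMP genes, of interest because cordycepin resembles adenosine, Creb1 was the only member called. Its brightest probe gave −1.18 and another 3.58, so no direction can be given for the gene.

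Few genes for the basic machinery of the cell were called. Of the 79 ribosomal protein genes, 79 oxidative phosphorylation subunits, 38 proteasome subunits, 26 cytosolic heat shock chaperones and 37 glycolysis and hypoxia genes measured, 0 were called in either direction, with medians of 0.00, 0.08, 0.10, −0.03 and 0.11. The ribosomal protein genes spanned only −0.18 to 0.14. The medians of the ribosomal, oxidative phosphorylation and proteasome lists fell below 0, to −0.15, −0.07 and −0.05, under at least 1 other scaling or filter. No cholesterol and fatty acid synthesis gene (40 measured), lysosomal or vacuolar ATPase gene (52), S phase gene (45), mitotic gene (44) or keratin gene (15) was called. The reference genes Gapdh (−0.07, adjusted p = 0.742), Actb (−0.05, adjusted p = 0.799) and Rpl28 (0.03, adjusted p = 0.881) did not pass. Of 67 translation factors the germline eIF4E relative Eif4e1b, above background on no LPS+DMSO array, rose at least 2.45-fold (measured means 3.44 and 6.50), and Eif1a was lowered (−1.02), a call lost under 4 of the alternatives, including without culture day 2 or 3. Of 80 splicing factors the kinase Clk2 was lowered (−1.24), while Prpf39 was raised by its brightest probe (1.01) with another at −1.26, and lost its call under 8 of the alternatives. Of 48 histone genes H2bc21 was raised (1.51). H1f8 was raised by 1.02 but lost its call under 9 of the alternatives, and H3c15 was lowered (−1.10) but lost it under 5, including without LPS+cordycepin replicate 4.

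**Figure D3:**
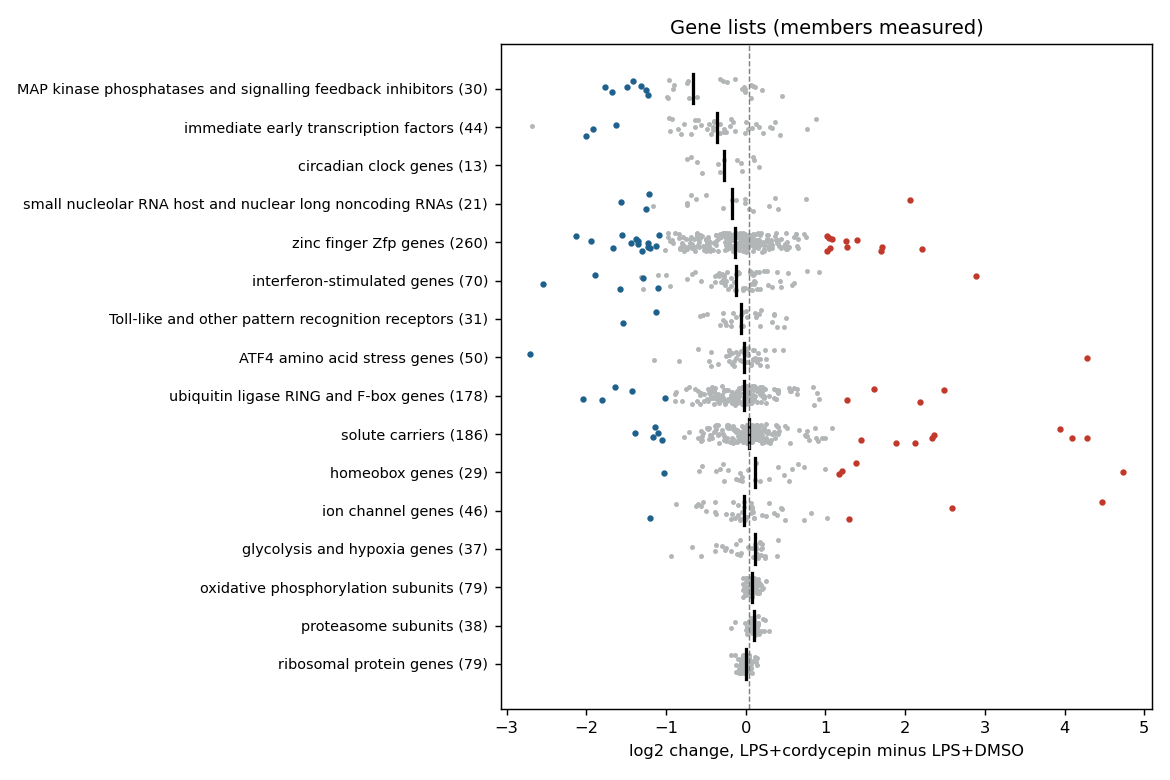
Log2 change, LPS+cordycepin minus LPS+DMSO, of every measured member of 16 gene lists, with called members in red (raised) or blue (lowered), the list median as a black bar and the median of all genes, 0.035, as a dashed line. The feedback inhibitors lie furthest left, with a median of −0.66, while the ribosomal, proteasome and oxidative phosphorylation genes lie close to the dashed line.

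The largest rises were in genes of unlike function. Among genes above background on all 8 arrays the largest was that of Gzmm (NM_008504, mm9 chr10:79157946-79158005, plus strand), granzyme M, a serine protease of natural killer cells. Its levels were 7.37, 6.69, 6.91 and 7.24 in LPS+DMSO and 11.31, 11.83, 11.71 and 11.92 in LPS+cordycepin, a change of 4.64 ± 0.16 (SE, n = 4 per group, adjusted p = 1.88e-10). Asb4, a ubiquitin ligase adaptor, was at 7.31, 6.92, 6.82 and 6.54 in LPS+DMSO and at 10.64, 10.90, 10.96 and 10.78 in LPS+cordycepin, so that it changed by 3.92 ± 0.17 (adjusted p = 5.31e-10), and another probe gave 3.26. Crip2, a LIM domain protein of the heart and vessels, was at 7.61, 7.11, 7.43 and 7.81 in LPS+DMSO and at 10.71, 10.74, 11.30 and 11.23 in LPS+cordycepin, which is a difference of 3.51 ± 0.21 (adjusted p = 1.23e-08). Each of these genes had all LPS+cordycepin arrays more than 2 units above all LPS+DMSO arrays. Fgf18, a growth factor of the skeleton and lung, was at 8.62, 8.33, 8.98 and 8.81 in LPS+DMSO and at 11.47, 11.90, 12.02 and 12.06 in LPS+cordycepin, so that it changed by 3.18 ± 0.16 (adjusted p = 2.6e-09), with a second probe at 3.23. The others of the 10 were Evpl, a cornified envelope protein of epidermis (3.42), Ovgp1, an oviduct glycoprotein (3.37), the lysophosphatidic acid receptor Lpar2 (3.30), Wfikkn1 (3.28), Shd (3.28) and the neural proteoglycan Cspg5 (3.07).

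Genes that were not detected at all in LPS+DMSO cells were among those raised most. Of the raised genes with a symbol, outside the set-aside lists, 56 were above background on all 4 LPS+cordycepin arrays and on no LPS+DMSO array. Ptcra, the pre-T-cell receptor alpha chain, rose at least 13.5-fold, from a measured mean of 4.87 to 8.96. Slc7a3, a cationic amino acid transporter, rose at least 10.5-fold (4.32 to 8.60), Tgfb2, a cytokine of the TGF-β family, at least 10.1-fold (3.91 to 8.54, another probe giving a change of 4.34), and Gm10561 at least 8.33-fold (3.25 to 8.27). Tbxa2r, the thromboxane receptor, was at 3.53, 3.85, 3.15 and 3.88 in LPS+DMSO and at 8.37, 8.28, 8.67 and 8.80 in LPS+cordycepin. The lists held further cases. Lhx3, a pituitary homeobox gene, rose at least 7.14-fold and the potassium channel gene Kcnj14 at least 6.04-fold. As lists, 4 of 29 homeobox genes were raised and 1 lowered, and 3 of 46 ion channel genes and 1. Of 24 olfactory, vomeronasal and taste receptor genes 3 were raised and 1 lowered. Of 186 solute carriers 8 were raised and 5 lowered, and of 178 ubiquitin ligase genes 4 and 5. In that order the raised shares were 13.8%, 6.52%, 12.5%, 4.30% and 2.25%, beside 5.94% over all genes. The lowered shares were 3.45%, 2.17%, 4.17%, 2.69% and 2.81%, beside 1.52%. The raised members not detected on any LPS+DMSO array included Lhx3, Kcnj14, Kcnc1, Olfr1036 and Slc7a3. Such members, like the 56 genes above, entered the test through the arrays of another condition, which favours a rise. The raised counts of these lists thus support nothing by themselves. The lists left 8827 symbol genes uncovered, of which 337 were raised and 98 lowered.

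Raised genes had an expressed gene upstream more often than lowered genes did, although most raised genes had none. Of the 940 raised genes with a mapped probe, 387 (41.2%, exact 95% binomial interval 38.003% to 44.393%, which takes genes as independent) had the probe of another gene within 20 kb upstream on the same strand that was above background on all 8 arrays. Of lowered genes 12.4% did and of genes not called 12.1%. Downstream the shares were 10.4%, 15.8% and 11.6%, with the raised genes lowest. The upstream share was similar when only genes above background on all 8 arrays were counted, at 40.4% of raised and 12.1% of uncalled genes, and for each kind of transcript it was higher in raised genes than over all genes: 43.6% against 12.6% for genes with a symbol, 46.2% against 23.4% for intergenic RNAs and 28.9% against 13.4% for other transcripts. Among lowered genes the share was 9.41% of 202 with a symbol, 28.6% of 21 intergenic RNAs and 27.8% of 18 other transcripts. In other transcripts the raised and lowered shares were thus close. At equal brightness the difference between raised and uncalled genes stood as well. Of genes with an LPS+DMSO level under 6, 40.6% of 475 raised and 15.5% of 367 uncalled genes had such a neighbour, and of genes at 10 or over 28.3% of 46 and 12.4%.

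The upstream neighbours, which had to be above background to count, were mostly not called. The raised genes had 355 of them, with a median level of 11.64 and a median change of −0.03, and 340 were not called (95.8%). The neighbours of uncalled genes were alike in this, with a median level of 11.26 and 96.3% not called. For Gzmm the neighbour was Cdc34, a ubiquitin-conjugating enzyme, 6866 bases upstream. For Crip2 it was Mta1 (9072 bases), for Lpar2 Gmip (9696 bases), for Wfikkn1 Rab40c (4524 bases), for Shd Yju2 (9823 bases) and for Ovgp1 Wdr77 (19540 bases). Apoe lay 4975 bases beyond Tomm40, Isg20 11929 bases beyond Aen, Tbxa2r 8643 bases beyond Cactin and Ptcra 19755 bases beyond Rpl7l1. The distances are between probe positions in mm9, so the distance between transcript ends differs from them. The raised genes were also short. The median RefSeq span of raised protein-coding genes was 9.71 kb (396 genes), that of lowered genes 14.6 kb (192) and that of all genes tested 21.6 kb (11095), and 51.0%, 38.02% and 26.6% of them were under 10 kb. The labelling primes from poly(A) tails, and its part in the changes was not tested.

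**Figure D4:**
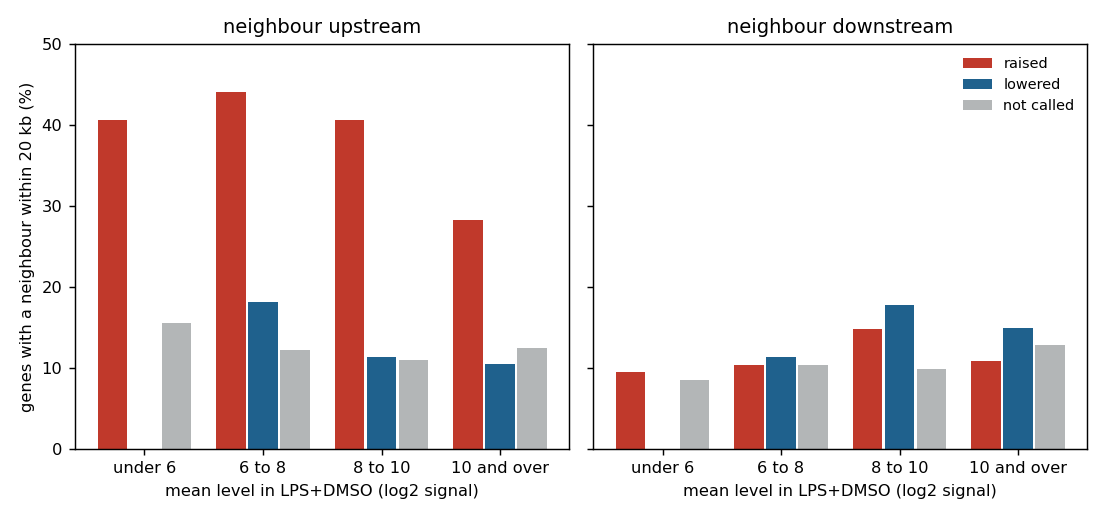
Share of genes, in percent, with an expressed gene within 20 kb on the same strand upstream (left) or downstream (right), for raised (red), lowered (blue) and uncalled (grey) genes in 4 classes of mean log2 signal in LPS+DMSO. Upstream, the raised genes stand at 40.6%, 44.0%, 40.6% and 28.3%, above the uncalled genes in each class, and downstream the bars lie closer together. No bar is drawn for the 4 lowered genes with a level under 6.

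Most raised genes were also raised without LPS, while most lowered genes were not called there. Cells given cordycepin without LPS, compared with DMSO cells on 8 other arrays from the same 4 culture days, had 710 genes raised (4.47%) and 170 lowered (1.07%). Of those, 643 and 98 were also raised and lowered with LPS. The shared raised genes were 90.6% of the genes raised without LPS and 68.2% of those raised with it, the shared lowered genes 57.6% and 40.7%. No gene was called in opposite directions. The genes raised with LPS had a median change of 1.45 without LPS, beside 1.82 with it. Those lowered with LPS had medians of −0.87 and −1.29. Across all genes the 2 changes had a Pearson r of 0.84, and 0.78 over the 14127 genes above background on all 8 arrays with LPS. These are descriptions across genes, which are not independent replicates, and the 2 comparisons share days and slides. Gzmm changed by 4.56 without LPS, Chac1 by −2.22 and Hinfp by −2.40, each close to its change with LPS.

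For a smaller set the cordycepin change itself differed with and without LPS. The interaction, tested in the same limma fit, was called for 57 genes, 0.359% of all genes tested, of which 32 lay above 0 and 25 below 0. With the culture day as a block the count was 109, of which 62 lay above 0, and 56 of the 57 were among them. It was 12 after scaling to spiked-in controls or without a filter on dim probes, and 21, 40, 14 and 15 without culture day 1, 2, 3 or 4. Of the 32 above 0, 30 were raised with LPS. The upstream neighbour of 6 of the 32 was itself raised by LPS, beside 15 of the 943 raised genes and 44 of all 15875. Icam5, a neuronal adhesion molecule, was at 5.93, 5.85, 6.09 and 6.21 in LPS+DMSO and at 9.70, 9.93, 10.23 and 10.54 in LPS+cordycepin. Its change was 4.08 with LPS and 0.69 without (interaction 3.39, adjusted p = 3.96e-06). C5ar2, a receptor for complement C5a that was above background on all 4 LPS+DMSO arrays, changed by 2.56 with LPS and 0.54 without (interaction 2.01, adjusted p = 3.05e-05). For others the LPS+DMSO level was at or near background, so their differences have no exact size. Prph, a neuronal intermediate filament, rose at least 7.43-fold with LPS (measured means 3.49 and 8.10, interaction adjusted p = 0.000374). 2610507I01Rik rose at least 4.54-fold (measured means 3.83 and 7.39, interaction adjusted p = 0.000338). Icam5 was above background on 3 of the 4 LPS+DMSO arrays. Its probe lay 11129 bases beyond that of Icam1, and that of C5ar2 12142 bases beyond that of C5ar1. From DMSO to LPS+DMSO, Icam1 and C5ar1 changed by 2.67 and 2.66. The part of these neighbours was not tested. The genes of this paragraph were singled out after their values were seen, apart from 2610507I01Rik.

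The interactions below 0 held genes that cordycepin lowered more with LPS and genes that it raised less or only without LPS. Of these 25 genes 16 were lowered with LPS, 7 were not called and 2, Mybpc3 and Tspoap1, were raised. Some of the 25, Tnf, Acod1, Cd83 and Traf1 among them, belong to the set-aside lists. Plekho2 changed by −2.67 with LPS and −1.29 without (interaction −1.38, adjusted p = 0.0104). Atf3 changed by −2.01 and −0.995 (interaction −1.01, adjusted p = 0.0492, at the threshold), and Herpud1 by −1.88 and −0.67 (interaction −1.22, adjusted p = 0.0114). For Il4i1, an enzyme that oxidises phenylalanine, the changes were −1.65 and −0.13 (interaction adjusted p = 0.0133). For Slc15a3, a transporter of bacterial peptides, they were −1.39 and −0.16, and for Ikbke, a kinase of the interferon pathway, −1.07 and 0.09. These 3 were chosen after their values were seen. Rsad2 changed by −2.54 and −1.41 and Ifih1 by −1.58 and −0.38, but their interactions did not pass (adjusted p = 0.906 and 0.477), so a difference between the conditions was not detectable for either.

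**Figure D5:**
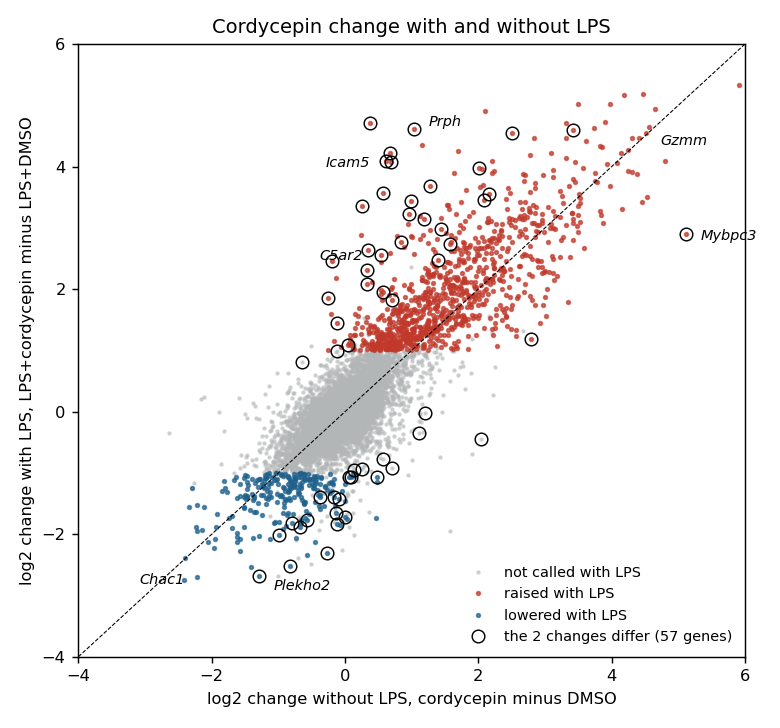
Log2 change with LPS (LPS+cordycepin minus LPS+DMSO, vertical) against log2 change without LPS (cordycepin minus DMSO, horizontal), 1 point per gene, coloured by its call with LPS, with the 57 genes whose changes differ circled and the line of equal change dashed. Without LPS 935 of the raised genes also lie above 0 and 230 of the lowered genes below 0. Icam5 (4.08 with LPS, 0.69 without), C5ar2 and Prph lie above the line and Mybpc3 below.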

How the data were processed

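RNA of RAW 264.7 cells was labelled with Cy3 and hybridised to 16 1-colour Agilent arrays, 4 per condition; the labels and the study's methods name different RNA extraction methods. The authors deposited scanner output of Agilent Feature Extraction 10.10.1.1 (submitters' processing notes), whose processed signal is a background-subtracted intensity on a linear scale, and a table of log2 values normalised by the authors, used here as an alternative. From the intensities, log2 signals were taken minus each array's 75th percentile over the 18147 probes above background on all 16 arrays, with one constant added back. Control spots and outlier spots were left out. A probe was kept (21597 were) if some condition had it above background on each of its 4 arrays, and the brightest probe stood for a gene. All 16 arrays were fitted in limma 3.58.1 (R 4.3.3) with 4 condition means and Benjamini-Hochberg adjustment. Figures and counts used Python 3.11.15. In simulated data with independent normal errors, 200 of 15875 genes were changed 4-fold in the cordycepin comparison with LPS. Of these 197 were recovered, with 7 false calls. Smaller changes, slide effects and the background limit were not simulated.

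Named genes were, outside the set-aside lists and changed alike on all 4 days, the 10 largest falls and rises above background on all 8 arrays, the 5 largest bounds among genes detected in 1 group only, and up to 3 called members per list (2 brightest where none was called). The members and lists were chosen with earlier results of these data known, and 3 lists were written after the values were seen. The labels give each replicate number its own culture day. Deviations of same-numbered LPS+DMSO and LPS+cordycepin arrays from their group means correlated at 0.28, 0.26, 0.12 and 0.17. Over all conditions the mean correlation was 0.20 for same-numbered arrays. It was 0.18 for other numbers on the same slide and −0.19 across slides. The correlations thus followed the slide and did not tell the day apart from it, so the pairing by day rests on the labels. Replicates 1 and 2 were on one slide and 3 and 4 on the other, with every condition on both. Alternatives were other scalings, background correction, filters, probe averaging, blocks for day or slide, thresholds, the methods' t-test and leaving out arrays. Probe positions are mm9, and promoters and gene spans are RefSeq GRCm38.p6.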

Additional observations from a re-analysis of the deposited data

Results flagged for a closer look

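For 4 named genes the interaction passed the test, so the cordycepin change differed with and without LPS: Plekho2 (−1.38), Atf3 (−1.01), Herpud1 (−1.22) and 2610507I01Rik (3.00). Crip2 had an interaction of −1.02 that did not pass (adjusted p = 0.184) and did with culture day as a block (adjusted p = 0.012).

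In 14 of 214 sets of 4 arrays 1 array stood far from the other 3, where chance gives about 1 in 20. Among LPS+DMSO arrays, replicate 1 stood apart for Rgs2 (15.17, the others 15.01 to 15.04), Atp5b (17.51, the others 17.31 to 17.33), Zfp607a (7.69, the others 8.30 to 8.42) and Olfr1443 (5.71, the others 6.46 to 6.52). Replicate 2 did for Apoe (10.49, the others 10.75 to 10.79), and replicate 4 for Ovgp1 (8.43, the others 7.52 to 7.65) and Clk2 (11.92, the others 11.52 to 11.59). Among LPS+cordycepin arrays, replicate 1 stood apart for Papolg (6.47, the others 7.16 to 7.20), 4933407L21Rik (6.55, the others 7.29 to 7.40) and Ctsa (17.39, the others 17.33 to 17.34). Replicate 2 did for Hsp90ab1 (16.81, the others 17.29 to 17.38) and Creb1 (6.87, the others 7.93 to 8.08), and replicate 4 for H3c15 (6.85, the others 8.03 to 8.26) and Polr3d (9.60, the others 10.21 to 10.33).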

How the results depend on the processing

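The count of raised genes (943) was 574 with normexp background correction, 554 on the authors' values, 343 over probes above background on all 16 arrays and 1715 with no minimum fold. The count of lowered genes (241) was 123 with normexp, 1327 with no minimum fold and 715 at 1.5-fold. Over probes above background on all 16 arrays 65.3% of called genes were raised, against 79.6%, and 70.4% after quantile normalization. The count of interactions (57) was 12 after scaling to spiked-in controls and without a filter on dim probes, 36 with normexp and over probes above background on all 16 arrays, 109 with the replicate block, 113 with the slide block, 14 at an adjusted p under 0.01 and 87 with no minimum fold. Leaving out a culture day gave 848 to 936 raised genes, 219 to 245 lowered and 14 to 40 interactions (21 without day 1, 14 without day 3, 15 without day 4). Leaving out 1 LPS array gave 870 to 971, 221 to 258 and 48 to 62. The number of the 37 lists with more lowered than raised members (12) was 22 with no minimum fold and 21 at 1.5-fold. The share of raised genes with an upstream neighbour (41.2%) was 44.7% after scaling to spiked-in controls, 45.0% with normexp, 32.0% with no minimum fold and 35.5% at 1.5-fold, and was not computed without the filter. The share of lowered promoters with TGATGNAA (5.03%) was 10.2% with normexp. Of 81 named genes called, 60 kept their call under every alternative run for them and 21 lost it under at least 1. Averaging a gene's probes turned Prpf39 to −0.12 and Creb1 to 1.20. The replicate block changed no count of raised or lowered genes by over 1.5 times. The causes were not tested. Dim genes carry the largest changes and the fewest detected arrays, which limits the precision of their folds.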
